A study of Anopheles gambiae with 5 samples.

Results

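Prophenoloxidases are copper enzymes that insects store as inactive precursors, mainly in blood cells and in the haemolymph. CLIP-domain serine proteases cut them to active phenoloxidase, which oxidises phenols to quinones that polymerise to melanin around wounds, microbes and, in refractory mosquitoes, the ookinetes of Plasmodium that cross the midgut wall. The 9 genes PPO1 to PPO9 of A. gambiae were taken by the identifiers that the study's list of candidate genes pairs with these symbols, and all 9 were found among the 13102 annotated genes of the 6 chromosome sequences analysed here. The rule goes by name and uses no measured value, although earlier results of these data were known when the genes were chosen.

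The series has 5 libraries of the Kisumu strain, from adult females aged 6 to 8 days that had a sugar solution and no treatment. Midguts gave 1 H3K27ac ChIP library, 1 H3K27me3 ChIP library, 1 input library and 1 RNA library, and salivary glands gave 1 RNA library. The strain is isogenic and each library came from tissue pooled over a number of females, so the files hold no replicate, no difference between animals could be tested, and the values below describe these libraries. The peak lists and the transcript set used here carry neither read depth nor expression. Both were not analysed here, so no error is given for an island's edges and the tissue label was not checked against marker genes. In bulk tissue a called region does not tell in what share of the cells the mark was present.

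Both marks sit on lysine 27 of histone H3 and exclude each other on a given histone tail. Trimethylation (H3K27me3) is laid down by Polycomb repressive complexes and is known for silent genes in insects and mammals, whereas acetylation (H3K27ac) is known for active promoters and enhancers. The question asked of the prophenoloxidase genes was which of the marks they carried in the midgut and where along each gene. H3K27me3 regions are called islands here, as SICER joins enriched windows into stretches, and each island has a whole number from SICER in column 4 of its list, called its SICER value below. H3K27ac peaks were called with another program, MACS, so a difference between the marks cannot be told apart from a difference between the callers, and the values of both lists are not on one scale. Positions are those of AgamP4, counted from 1.

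H3K27me3 lay on 7 of the 9 prophenoloxidase genes, and H3K27ac on none of them. A gene was counted as marked where at least 1 bp of an island or peak lay in the gene or in 200 bp on either side, the gene regions of the study. By the same count 28.8% of all 13102 genes carried H3K27me3 and 37.0% carried H3K27ac. H3K27me3 marked 29.6% of the genes of 2L and 29.3% of those of 2R, the chromosome arms of the 7 genes. Among the 3488 genes no shorter and no longer than the 9, the shares were 26.9% for H3K27me3 and 43.8% for H3K27ac. These narrower backgrounds were added after seeing the data. The unmarked members were PPO3 and PPO5. The 7 marked genes had 8 islands, 2 of them on PPO1, and each of the 8 touched a single prophenoloxidase gene. The islands were modest in size, and when they were limited to SICER values at or above the median of all islands, 248, the marked genes were PPO1, PPO2 and PPO8, 3 of 9, against 21.3% of all genes under the same limit. With islands of 2000 bp or longer they were PPO1, PPO2, PPO6, PPO8 and PPO9, 5 of 9, against 23.7% of all genes, and the islands of PPO6 and PPO9 were exactly 2000 bp long.

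The 9 genes stood at 4 places in the genome. A cluster of 6 genes (PPO3, PPO8, PPO6, PPO9, PPO7 and PPO4, in chromosome order) ran over 64425 bp of 2L, from 7441521 to 7505945, with all 6 on the minus strand. PPO2 lay farther along 2L, PPO1 on 2R and PPO5 on UNKN, the collection of unplaced sequence. The H3K27me3 pattern differed between these places, and they are described in turn.

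In the 2L cluster the H3K27me3 islands lay on the genes, and the sequence between the genes was almost free of islands. The 6 genes made up 15188 bp of the cluster, of which 8542 bp (56.2%) were under H3K27me3, while of the remaining 49237 bp only 58 bp (0.118%) were. Across 2L as a whole, 20.3% of the bases in annotated genes and 22.2% of the bases outside them were under the mark. The gaps between neighbouring genes ran from 522 bp between PPO6 and PPO9 to 22715 bp between the short gene AGAP004979 and PPO7, and none held an assembled transcript. Between the islands of PPO6 and PPO9, the closest pair, 1000 bp were free, more than the 600 bp that SICER bridges, and the other neighbouring islands were 2600 to 34200 bp apart. Reads that map repeatedly had been removed before peaks were called, and whether reads could be placed between the genes was not tested.

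**Figure D1:**
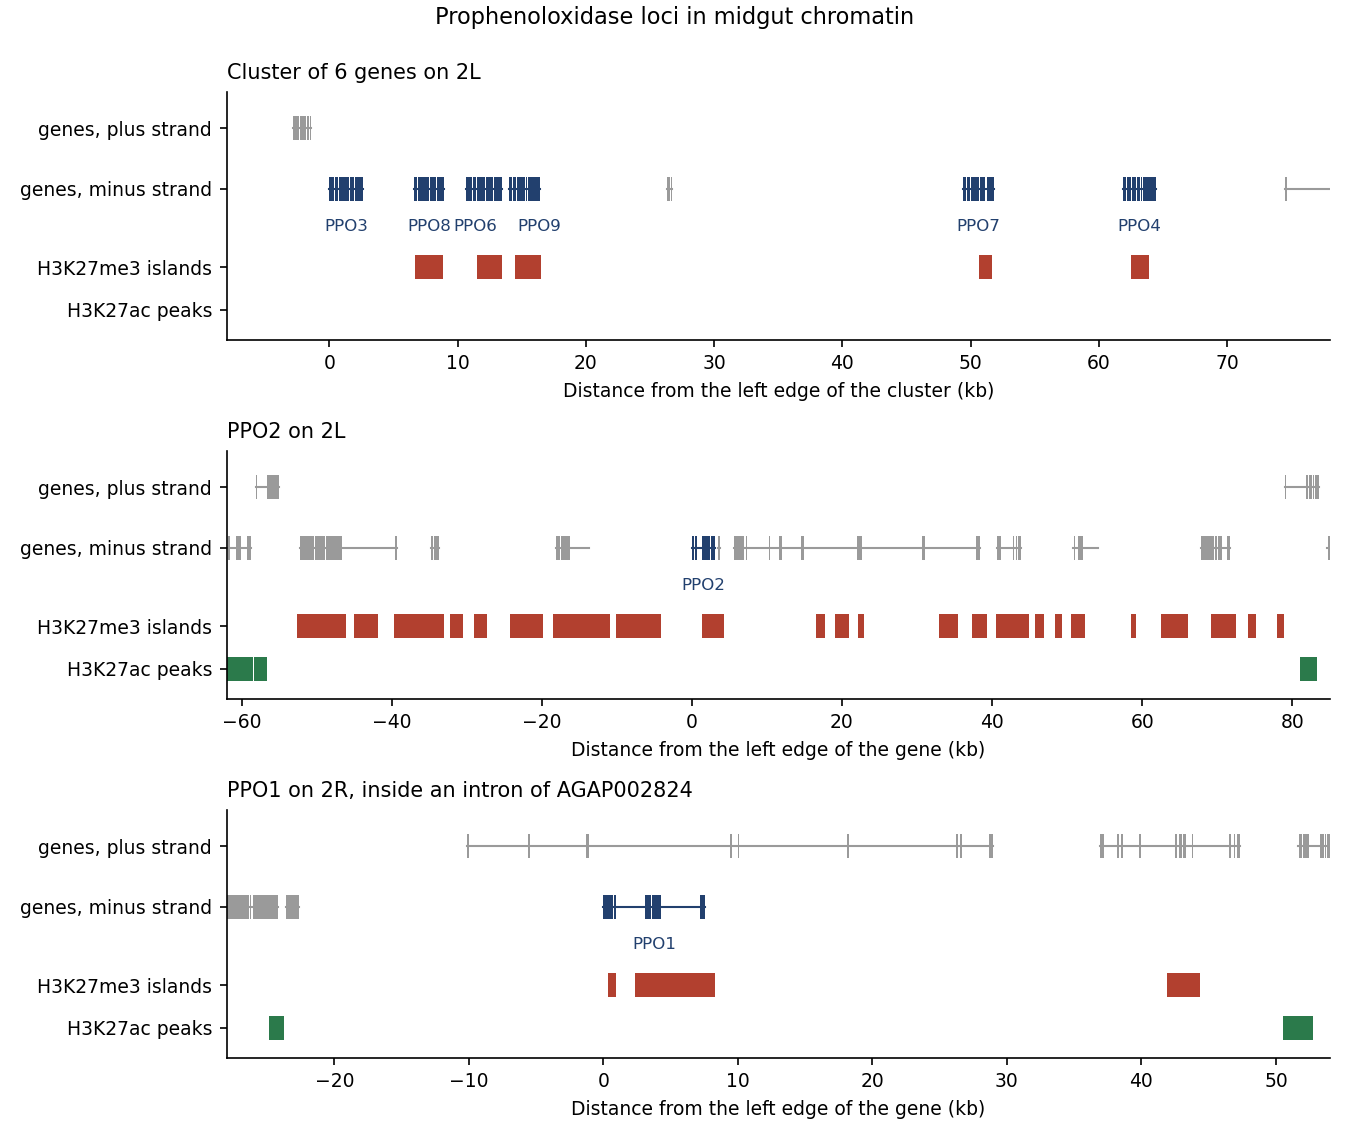
Maps of the cluster on 2L, of PPO2 and of PPO1, with distance from the left edge of the cluster or gene in kb on the horizontal axis. Boxes on the 2 upper rows of each map are exons (prophenoloxidase genes in blue, other annotated genes in grey), and boxes on the lower rows are H3K27me3 islands (red) and H3K27ac peaks (green). In the cluster, 5 islands sit on 5 genes and PPO3 has none, while PPO2 lies in a long row of islands.

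PPO8 (AGAP004976, 2L 7448120 to 7450491) was the most fully covered member, with 92.7% of its body under an island of 2200 bp from 7448201 to 7450400. The island had a SICER value of 265, lay wholly inside the gene, and held exons 2, 3 and 4 and all 4 introns. It was separated from the transcription start by 90 bp and began 81 bp inside the other end of the gene.

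PPO9 (AGAP004978, 2L 7455500 to 7457965) had 79.7% of its body under an island of 2000 bp from 7456001 to 7458000, with a SICER value of 219. The start was inside the island, which passed it by 35 bp, and exons 1 to 3 were covered whole. PPO6 (AGAP004977, 2L 7452207 to 7454977) had a much like arrangement, with 71.3% of its body under an island from 7453001 to 7455000 of the same length and a SICER value of 190. That island passed the start by 23 bp, held exons 1 to 4 whole and left exons 5 and 6 free.

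PPO4 and PPO7 had shorter islands, which lay inside the gene on both sides. In PPO4 (AGAP004981, 2L 7503372 to 7505945), 54.4% of the body was under an island of 1400 bp from 7504001 to 7505400, with a SICER value of 144. Between this island and the start lay 544 bp free of the mark, and PPO4 was the only marked member without H3K27me3 within 200 bp of the start. In PPO7 (AGAP004980, 2L 7490941 to 7493328), 41.9% of the body was under an island of 1000 bp from 7492201 to 7493200 with a SICER value of 127, which was separated from the start by 127 bp and covered exon 2 whole and 77.4% of exon 1. Exons 3 to 5 of PPO7 were free of the mark.

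PPO3 (AGAP004975, 2L 7441521 to 7444137) at the left end of the cluster had no base under H3K27me3 in any of its 6 exons. Its nearest island, that of PPO8, was 4063 bp away from the start, beyond the gap of 3982 bp that separates the 2 genes. PPO3 thus had neither mark when flanks of 1000 bp were allowed on each side. The 2 annotated genes on its left, AGAP004974 at 1454 bp and AGAP004973 at 68524 bp, carried neither mark, and the nearest island in that direction was 104520 bp away.

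PPO2 (AGAP006258, 2L 28702474 to 28705612, minus strand) lay in a stretch with many islands. Its island of 3000 bp from 28703801 to 28706800, with a SICER value of 356, covered 57.7% of the body and ran 1188 bp past the start. In doing so it also held the whole of AGAP006259, a gene of 264 bp on the same strand whose end is separated from the start of PPO2 by 385 bp. The 2 genes on each side of PPO2, AGAP006257 and AGAP028399 on the left and AGAP006259 and AGAP006260 on the right, all carried H3K27me3. Of the sequence of 137.6 kb between the H3K27ac peaks that flank PPO2, 49% was under 23 islands. All 9 annotated genes inside it carried the mark, against 29.6% of the genes of 2L.

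PPO1 (AGAP002825, 2R 28007274 to 28014861, minus strand) is the longest of the 9 genes, at 7588 bp, and lay whole inside an intron of 10530 bp of AGAP002824, a gene of 39096 bp on the opposite strand. Its larger island, of 6000 bp from 28009601 to 28015600 with a SICER value of 490, covered exons 1 to 3 whole and passed the start by 739 bp. A smaller island of 600 bp from 28007601 to 28008200, with a SICER value of 88, lay over parts of exons 4 and 5, and together they covered 77.2% of the body.

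In the host gene of PPO1 the mark was found nowhere but at PPO1. AGAP002824 held 6600 bp of H3K27me3, of which 5861 bp lay within PPO1 and the rest just upstream of its start, and none of the 9 exons of AGAP002824 had a base under the mark. The next islands were 33673 bp to the left and 34339 bp to the right of PPO1. Around PPO1, the neighbours AGAP002823 and AGAP002822 on the left and AGAP002828 on the right carried H3K27ac, and AGAP002826 on the right carried H3K27me3.

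PPO5 (AGAP012616, UNKN 20920789 to 20923374, plus strand) carried neither mark. On UNKN 2.50% of the 559 annotated genes carried H3K27me3 and 6.08% carried H3K27ac, both far below the shares of all genes. Its nearest island was 284626 bp away and its nearest H3K27ac peak 443946 bp away, counted along UNKN. As UNKN collects unplaced sequence, these need not be distances in the genome. Reads that map to repeated sequence had been removed before peaks were called. The part of this in the empty gene was not tested, and the lack of both marks is not read as their absence.

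**Figure D2:**
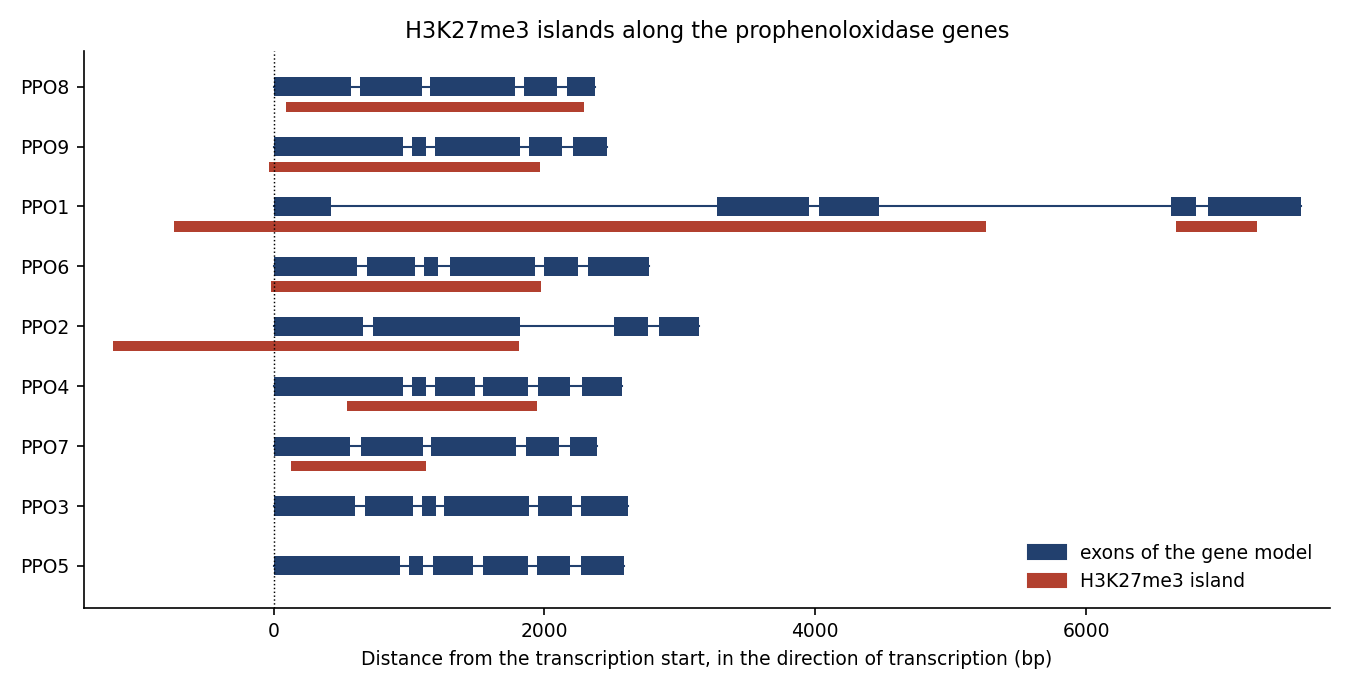
The 9 prophenoloxidase genes aligned at their transcription start, with distance in the direction of transcription in bp on the horizontal axis. Blue boxes are exons and red bars are H3K27me3 islands, and genes are ordered by the share of the body covered. Islands come within 200 bp of the start in 6 genes, and no island reaches the last base of any of the genes.

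In most marked prophenoloxidase genes the islands covered more of the part next to the start, and none reached the last base of its gene. The first base of the gene was under H3K27me3 in 4 of the 7 marked genes (PPO1, PPO2, PPO6 and PPO9), against 67.7% of the 3719 annotated genes with the mark in the body. The mark lay within 200 bp of a start in 6 of the 9 genes, against 21.3% of all genes. The last base was free of the mark in all 7 marked genes, against 45.4% of the 3719, and a marked first base went with a free last base in 4 of the 7, against 25.0%. Of the 7 genes, 5 stand in the 2L cluster and are not independent of each other, so these counts do not rest on 7 separate cases. Islands are made of windows of 200 bp, so an edge closer than this to a gene end is not resolved. This holds at the start of PPO6, PPO7, PPO8 and PPO9 and at the last base of PPO8. When each body was cut into 2 equal parts, the part next to the start was the more covered one in 6 of the 7, against 35.6% of the 3719 genes, and the exception was PPO8 with 92.3% and 93.2%. In PPO7 the values were 83.8% in the part next to the start and 0% in the other, and in PPO2 they were 100% and 15.5%. In PPO4 the lead was small, with 57.7% and 51.1%. The difference between the parts was less than a window of 200 bp in PPO4 and in PPO8, and is not resolved there. Of the 3719 genes, 33.3% had both parts covered whole, which was so in none of the 7, and in 31.0% the part away from the start was the more covered one.

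Most marked prophenoloxidase genes had islands that reached little or not at all beyond the gene, and several of these islands ended well inside it. In 5 of the 7 marked members, all in the 2L cluster, they reached no more than 200 bp past the ends of the gene, while this was so in 26.8% of the 3719 genes with the mark in the body and in 23.4% of the 926 such genes in the length range of the members. The distances past the gene were 0 bp in PPO4, PPO7 and PPO8, 23 bp in PPO6 and 35 bp in PPO9, and they were 739 bp in PPO1 and 1188 bp in PPO2. The 5 genes stand in the same cluster and are not independent of each other. The mark covered 50% of the body or more in 6 of the 9 members, against 19.8% of all genes. Over the 7 marked members the median share of the body was 71.3%, and it was 81.1% over the 3719 genes and 77.7% over the 926.

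Islands at these genes lay within the range of the mark in length and density. Their lengths had a median of 2000 bp and ran from 600 to 6000 bp, and the median of all 12939 islands was 2400 bp. SICER values ran from 88 to 490 with a median of 204.5, against 248 for all islands. Per kb of island the SICER value was 81.7 to 147, with a median of 114, against 103 for all islands. The lowest value per kb belonged to the long island of PPO1 (16.7% of all islands were as low) and the highest to the short one of the same gene (86.1% were as low). Among the 8 islands the SICER values followed the order of the lengths, with PPO6 and PPO9 at equal length. What the SICER value counts is not named in the file.

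**Figure D3:**
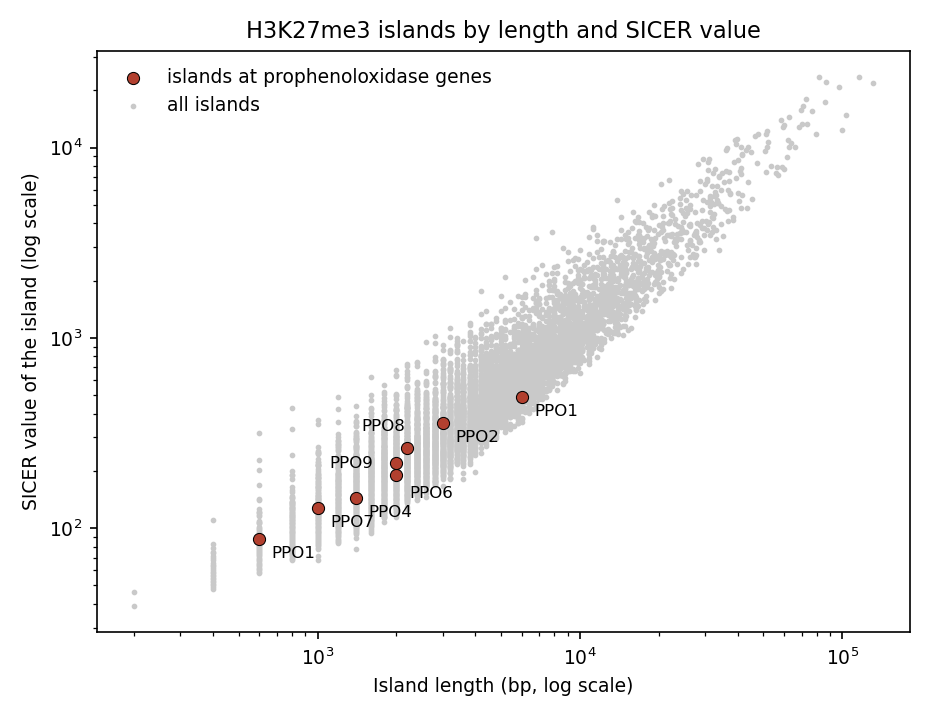
Length in bp (horizontal, log scale) and SICER value (vertical, log scale) of each H3K27me3 island. The 8 islands at prophenoloxidase genes are red points with the gene's name and all 12939 islands are grey. The red points lie within the grey cloud, with lengths from 600 to 6000 bp.

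Prophenoloxidase genes lay far from H3K27ac. The distance from the gene to the nearest H3K27ac peak had a median of 122705 bp over the 9 genes and ran from 23700 bp at PPO1 to 443946 bp at PPO5, while the median was 13181 bp over the 3773 genes with H3K27me3 and 2784 bp over all genes. More than 50 kb separated 8 of the 9 genes from H3K27ac, against 18.9% of the genes with H3K27me3 and 13.3% of all genes. PPO5 is 1 of these 8, and as UNKN collects unplaced sequence, its distance need not be one in the genome. Without UNKN the median was 105023.5 bp over 8 genes. PPO2 was 56675 bp from a peak with a score of 703 that touches AGAP006255. PPO1, the exception, was 23700 bp from a peak with a score of 93.3 at AGAP002822 and AGAP002823, and 42929 bp from a peak with a score of 413 at AGAP002828.

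The 6 genes of the cluster share a single stretch of 288.3 kb without H3K27ac and are not separate cases. It was bounded by a peak with a score of 505 at AGAP028425, 149152 bp to the left of the cluster, and by a peak with a score of 726 at AGAP004989, 74725 bp to the right. The stretch held 21 annotated genes, of which 10 carried H3K27me3, and 5 of these 10 were prophenoloxidases. Only 8.88% of its sequence was under H3K27me3, in 12 islands. Around PPO2 the share was 49%, and in the 74.2 kb free of H3K27ac around PPO1 it was 12.1%.

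**Figure D4:**
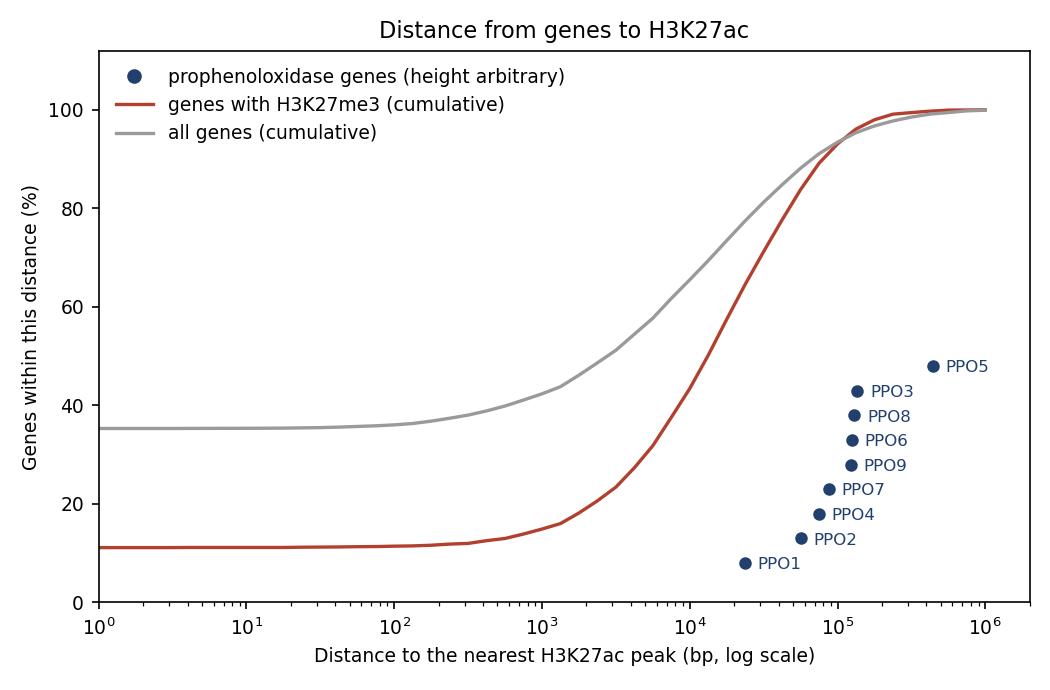
Cumulative share of genes (vertical, %) within a given distance of the nearest H3K27ac peak (horizontal, bp, log scale), for the 3773 genes with H3K27me3 (red) and for all 13102 genes (grey). Blue points mark the distances of the 9 prophenoloxidase genes, at arbitrary heights. The points run from 23700 bp at PPO1 to 443946 bp at PPO5, and 8 of 9 lie beyond 50 kb. PPO5 lies on UNKN, the collection of unplaced sequence, where a distance need not be one in the genome.

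Each prophenoloxidase gene had a single assembled transcript, of class "=", the CuffCompare code for an intron chain that matches the annotation. All 9 had 1 start and no alternative, antisense or overlapping isoform of their own, and 64.5% of all genes likewise had 1 transcript of class "=" and no other. No unannotated intergenic transcript (class "u") lay inside the cluster, and the nearest to any member was 6456 bp from PPO2. The transcript set joins midguts and salivary glands and has no abundance, so the presence of a transcript of class "=" says nothing here of expression in either tissue.

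The 9 genes had 4 to 6 exons each, and exon lengths, single or summed over neighbouring exons, recurred among 8 of them. An exon of 628 bp stood in PPO3, PPO6, PPO8 and PPO9, and 0.145% of all genes had an exon of this length. In PPO4 and PPO5 the same length was divided into exons of 294 and 334 bp, in PPO7 the exon in this place had 625 bp, and in PPO2 a single exon of 1084 bp had the length of exons 2 and 3 of PPO8 together (456 and 628 bp). PPO3 and PPO6 in turn had exons of 354 and 102 bp, 456 bp together, in the place of the exon of 456 bp of PPO7 and PPO8. As a single exon or as a run of neighbouring exons, 628 bp occurred in 0.763% of all genes, 456 bp in 0.969% and 1084 bp in 0.527%. These lengths were taken from the prophenoloxidase genes themselves, which are among all genes, so the shares are not a test of rarity. The exons of PPO1 had none of these lengths. Equal lengths were compared here and not sequences.

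PPO4 and PPO5 had the same 4 exon lengths in a row, 102, 294, 334 and 241 bp, although the first lies in the cluster on 2L and the other on UNKN. In PPO4 the exons of 102, 294 and 334 bp were wholly under H3K27me3, and in PPO5 no base was. PPO3 and PPO6 likewise had equal exons 2 to 5, of 354, 102, 628 and 250 bp, and PPO6 had exons 2 to 4 under the mark where PPO3 had none. Genes with these equal exon lengths thus differed in the mark. Exons matching the length of 628 bp were covered whole in PPO4, PPO6, PPO8 and PPO9, and the exon of 625 bp of PPO7 was free. Reads from sequence shared between genes could have been filtered out or placed on another copy, and the part of this in the unmarked exons was not tested.

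**Figure D5:**
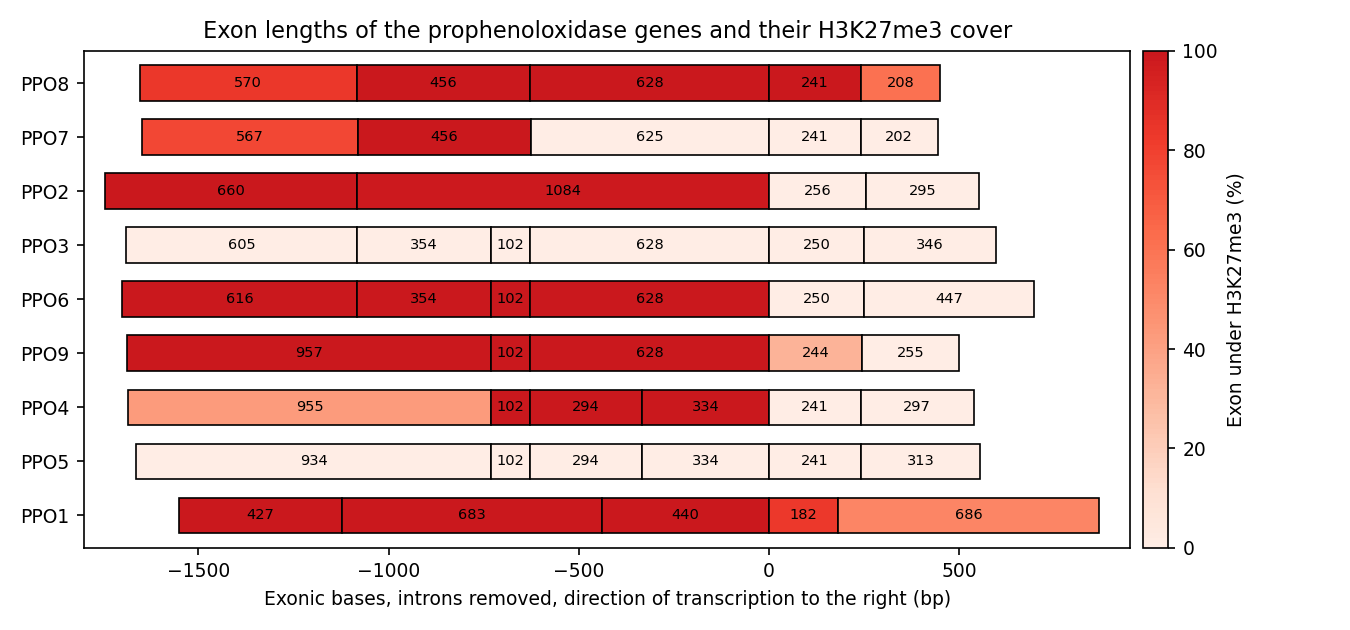
Exon lengths (bp, printed in the boxes) of the 9 prophenoloxidase genes with introns left out, in the direction of transcription from left to right, shaded by the share of the exon under H3K27me3 (%). Genes are aligned at the end of the exon or exons matching exon 3 of PPO8, and PPO1, which has no such exon, is placed by the end of its exon 3. The last 2 exons are free of the mark in PPO2, PPO4, PPO6 and PPO7, and no exon of PPO3 or PPO5 has it.

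Among 8 other genes of the study's candidate list that act in melanization or control it, 2 carried H3K27me3 and 1 carried H3K27ac, against 28.8% and 37.0% of all genes. LRIM1, a leucine-rich repeat protein that holds the complement-like factor TEP1 in the haemolymph, had its whole body under an island, and its partner APL1C had 32.1% of its body under one. TEP1 itself, APL1A and APL1B had neither mark and lay 8718, 1699 and 2818 bp from the nearest island. CTL4, a C-type lectin that protects ookinetes from melanization, had neither mark, nor had REL1, the transcription factor of the Toll pathway, whose gene was 510 bp from an H3K27ac peak and 412 bp from an island. CACTUS, the inhibitor of REL1, lay wholly under H3K27ac. Of these 8 genes, 5 were more than 50 kb from H3K27ac, against 8 of the 9 prophenoloxidases, and APL1A, APL1B and APL1C, which lie close together on 2L, were 214205, 209315 and 200546 bp away.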

How the data were processed

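Midguts and salivary glands of the Kisumu strain were analysed by ChIP-seq (midguts only) and RNA-seq. ChIP reads were aligned by the authors with Bowtie 1.0.0 on AgamP4, without reads that map repeatedly, and peaks were called against input. Values in the deposited H3K27ac list are the score from MACS 1.4. Those in the H3K27me3 list are whole numbers, 1 for each island, and what they count is not named in the list. The islands came from SICER (version not given in the sources used here), which joined windows of 200 bp across gaps of up to 600 bp. For RNA the authors used TopHat2 2.0.10 and Cufflinks 2.1.1 and deposited the positions of assembled exons, in bp, with other attributes. The transcript set used here carries no abundance.

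The end of an island was read as its last base, counted from 0 like its start, since all 12939 islands then covered whole windows. Here, genes were represented by transcripts of class "=", else "j", else "o". Overlap needed 1 bp, gene regions had flanks of 200 bp, and promoters reached 200 bp on each side of a start. Counts and medians were set beside the same measure over all annotated genes, without tests. Python 3.11.15, numpy 2.4.6 and matplotlib 3.10.9 were used, and overlap functions were tested on simulated data. Genes named were the members, the nearest annotated genes, genes at the flanking H3K27ac peaks and 8 melanization genes. Members and lists were chosen with earlier results of these data known. Promoter motifs, expression and the input were not analysed here.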

Additional observations from a re-analysis of the deposited data

How the results depend on the processing

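The H3K27me3 count of 7 of 9 genes changed with the strictness of the islands. It was 3 with islands at or above the median SICER value, 5 with islands of 2000 bp or longer, and 6 with at least 50% of the body, and it stayed at 7 without flanks, with flanks of 1000 bp, with islands merged across gaps of 1000 bp, with all gene models together and without UNKN. With island ends read as BED files define them, which shortens each island by 1 bp and was tried after seeing the data, it stayed at 7, and was 3 with islands of 2000 bp or longer, where PPO6 and PPO9 then miss the limit by 1 bp. The count at starts, 6, was 3 with islands at or above the median value, 4 at the start position alone, and 7 within 600 bp (a distance chosen after seeing the data) and within 1000 bp. The count of H3K27ac was 0 under every alternative tried, and none of them could have raised it. The peak nearest to any member was 23700 bp away, beyond flanks of 1000 bp, and the other settings only narrow the count. The median share of the body, 57.7% over all 9 genes, was 70.9% in exons alone, 64.5% without UNKN and 0% with islands at or above the median value. The median distance to H3K27ac was 105023.5 bp without UNKN. Of the 16 nearest neighbours 6 carried H3K27me3, 3 of them over at least 50% of the body, and among the 5 nearest on each side 15 of 40 did. Of all genes 28.8% carried the mark and 19.8% had it over at least 50% of the body, and these 3 neighbours all stand next to PPO2. For the 8 melanization genes, the H3K27ac count became 2 with flanks of 1000 bp, and the H3K27me3 count, 2, became 3 with flanks of 1000 bp, 1 at 50% of the body, 0 with islands at or above the median value and 0 with islands of 2000 bp or longer in either reading of the ends. Fewer islands enter by construction in the stricter settings. No paired analysis was possible because each group has 1 library. The motif search was not run, as no sequence was used here. Read depth was not analysed here, so the smallest island these libraries could show was not assessed.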

Other observations

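A short gene, AGAP004979, stands inside the cluster between PPO9 and PPO7, on the same strand, from 7467846 to 7468225 on 2L. It was looked at after its values had been seen. Its 2 exons have 98 and 202 bp with an intron of 80 bp between them, and PPO7 likewise ends in an intron of 80 bp and an exon of 202 bp. AGAP004979 and PPO7 are the only 2 of the 13102 annotated genes with this pair of lengths at their end. The nearest island was 9845 bp from AGAP004979, and the last exon of PPO7, which matches in length, was also free of the mark. Sequences were not compared, so whether the genes share sequence was not tested.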
